A study of Rattus norvegicus with 54 samples.

Results

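Carbon tetrachloride (CCl4) was given to rats once, and the miRNAs of their plasma were compared 24 h later with those of rats given the vehicle, corn oil. The comparison takes the 6 plasma libraries labelled CCl4 or corn oil, 3 of each, out of 54 libraries of kidney, liver, plasma and urine in the series, and it covers all 832 miRNA rows of the count table. CCl4 was given at 1500 mg/kg by oral gavage in corn oil, and the corn oil rats received the vehicle alone. All were male Sprague-Dawley rats aged 9 weeks by the labels, an outbred stock, fasted overnight and anaesthetised before blood was drawn into EDTA. Each library is the plasma of 1 rat, and p-values measure the spread between 3 rats of a group. Of the rows, 79 are further copies of a mature miRNA encoded at more than 1 locus. Reads in these 6 libraries fell on 551 rows, 231 rows passed the filter on low counts and were tested, and 281 rows had no read.

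miRNAs are short RNAs cut from stem–loop precursors, and a suffix of -5p or -3p tells which arm of the stem gave the mature form. Cells release them into blood inside vesicles or bound to proteins, and injured cells can leak their own set. Liver miRNAs in plasma are therefore studied as markers of liver injury, much like the enzymes ALT and AST. CCl4 is turned into a reactive radical by cytochrome P450 enzymes around the central vein, which makes it a classical hepatotoxicant.

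The mature sequences below are those the results turn on, taken from RefSeq (GRCr8), with the seed (bases 2 to 8, the part that pairs with target mRNAs) in capitals. The first set holds miRNAs that were higher in plasma after CCl4 at an unadjusted p under 0.05. No seed is shared within it.
miR-122-5p: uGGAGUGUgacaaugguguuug
miR-122-3p: aACGCCAUcaucacacuaa
miR-193a-3p: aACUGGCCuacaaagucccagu
miR-192-5p: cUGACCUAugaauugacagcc
miR-194-5p: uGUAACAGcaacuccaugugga
miR-101b-3p: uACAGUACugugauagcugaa
miR-182: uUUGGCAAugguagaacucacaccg
miR-22-5p: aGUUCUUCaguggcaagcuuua
The second set holds miRNAs that were lower, with the seed relative miR-125b-5p, and in it miR-133a-3p and miR-133b-3p share one seed and miR-351-5p, miR-125a-5p and miR-125b-5p share another.
miR-133a-3p: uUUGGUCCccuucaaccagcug
miR-133b-3p: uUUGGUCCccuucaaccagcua
miR-351-5p: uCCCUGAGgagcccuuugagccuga
miR-125a-5p: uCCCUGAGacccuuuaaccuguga
miR-125b-5p: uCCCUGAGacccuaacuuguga
miR-205: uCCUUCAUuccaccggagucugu
miR-127-3p: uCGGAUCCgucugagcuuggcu
miR-676: cCGUCCUGagcuugucgagcua
Of the 202 tested mature miRNAs, copies counted once, all but 19 matched a RefSeq sequence by name. miR-133a-3p and miR-133b-3p are near-identical, and with 2 mismatches allowed in the alignment their reads cannot be fully told apart.

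CCl4 libraries held 452187 to 1290244 reads and corn oil libraries 70736 to 406613 reads. A single read was worth 0.687 to 2.60 CPM (counts per 1000000 reads after TMM scaling) in the CCl4 libraries and 2.14 to 14.7 CPM in the corn oil libraries, so levels under 3 reads, up to 44.0 CPM in corn oil replicate 2, are poorly resolved. Corn oil replicate 2 was the shallowest library and carried 1.37% of its reads on the muscle list, against 0.0689% to 0.0815% in CCl4 plasma. miR-191a-5p, a miRNA common in blood plasma, led all 3 corn oil libraries and CCl4 replicate 3, whereas miR-22-3p led CCl4 replicates 1 and 2. The ratio of miR-451-5p to miR-23a-3p reads, a gauge of red cell lysis, was 1.23 to 2.09 in CCl4 plasma and 0.95 to 2.18 in corn oil plasma, and the groups overlapped.

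miR-122-5p, the most liver-restricted of the abundant hepatocyte miRNAs, rose in plasma after CCl4, and no other row passed the adjusted threshold. It had 2086, 351 and 335 reads (1914, 912 and 231 CPM) in the 3 CCl4 libraries, against 7, 1 and 2 reads (14.7 to 19.7 CPM) in the 3 corn oil libraries. Every CCl4 library lay far above every corn oil library, while the CCl4 rats themselves were spread widely, with replicate 1 highest. The log2 fold change was 5.96 (SE 0.92, where SE is the standard error), with an adjusted p = 0.0141 from edgeR's quasi-likelihood test with Benjamini-Hochberg adjustment over 231 rows. That is 1 row called higher (0.433% of those tested) and 0 called lower (0%), although 10 rows were lower at an unadjusted p under 0.05 and DESeq2 called 5 rows higher (2.16%) and 6 lower (2.6%). Without corn oil replicate 2 the log2 fold change of miR-122-5p was 5.90, yet its adjusted p became 0.0915 and edgeR called 0 rows.

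The other arm of the precursor, miR-122-3p, had 548, 156 and 120 CPM in CCl4 plasma, against 4.29, 0 and 29.5 CPM in corn oil plasma. The groups did not overlap, though 2 of the 3 corn oil values rest on a handful of reads. Its log2 fold change was 4.85 (SE 1.03), with an adjusted p = 0.0721 in edgeR.

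miR-802, a miRNA of liver and pancreas, was read at low depth on both arms. miR-802-5p had 231, 25.99 and 42.0 CPM in CCl4 plasma, against 6.43, 0 and 29.5 CPM in corn oil plasma, and the groups overlapped because corn oil replicate 3 lay above CCl4 replicate 2. Its log2 fold change was 3.22 (SE 1.11, adjusted p = 0.308 in edgeR). miR-802-3p was too low for the test, with 102, 17 and 23 reads in CCl4 plasma and no read in the 3 corn oil libraries. Pooled over the libraries of each group, against a floor of 3 corn oil reads, miR-802-3p was at least 9.13-fold higher per read sequenced. Most of its reads came from CCl4 replicate 1, and there was no replicate test.

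A looser criterion, an unadjusted p under 0.05 together with a linear fold of 1.5 or more, was met by 10 rows that were higher (4.33% of those tested) and 10 that were lower (4.33%), or 9 mature miRNAs each way with copies counted once. The 9 higher ones were miR-122-5p, miR-122-3p, miR-802-5p, miR-193a-3p, miR-192-5p, miR-194-5p, miR-101b-3p, miR-22-5p and miR-182. In all 9 the highest of the 6 libraries was CCl4 replicate 1. Without that library 4 rows were higher and 4 lower: miR-122-5p, miR-122-3p, miR-193a-3p and 1 of 2 copies of miR-194-5p still met the criterion upwards, while miR-192-5p had a log2 fold change of 1.56 and miR-182 of 1.38, and neither did. The counts were 24 higher and 29 lower without corn oil replicate 1. They were 15 higher and 4 lower without corn oil replicate 3, and 15 higher and 3 lower without CCl4 replicate 3.

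**Figure D1:**
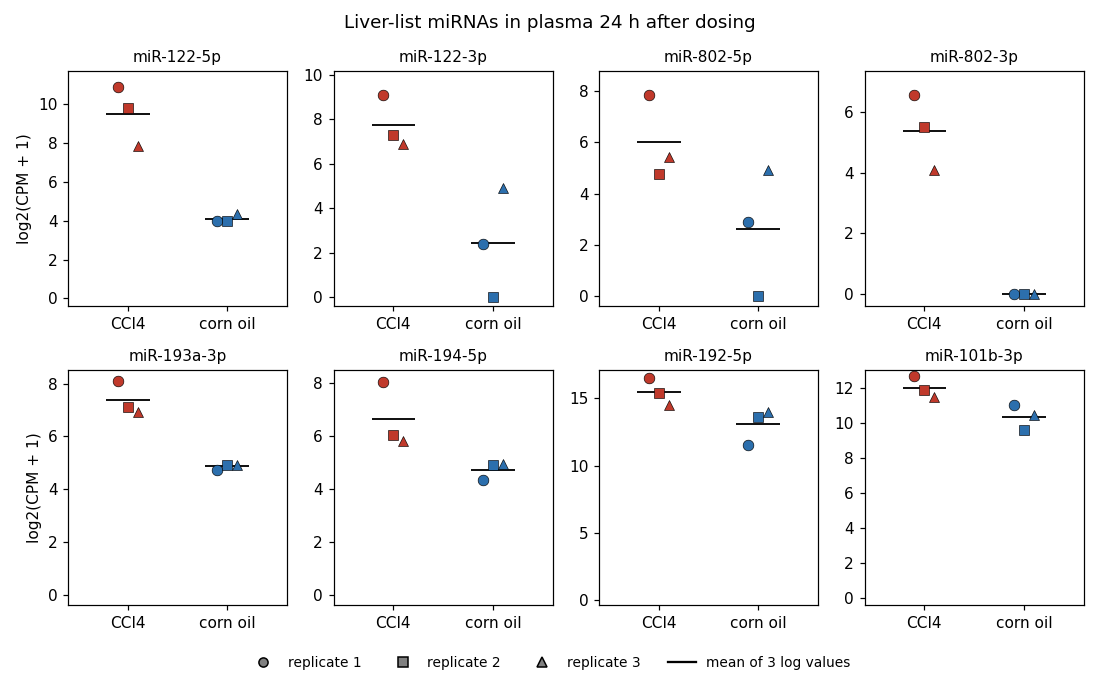
Levels of 8 miRNAs of the liver lists in plasma, as log2(CPM + 1) on the y axis, with CCl4 rats (red) left of corn oil rats (blue), 1 symbol per replicate and a bar at the mean of the 3 log values. CCl4 replicate 1 is highest in each panel, and the groups overlap only for miR-802-5p.

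miR-194-5p has 2 gene copies in the GRCr8 annotation, and the copy on chromosome 1 lies beside the gene of miR-192-5p. Both miRNAs are abundant in liver, kidney and gut epithelium. miR-192-5p had 93828, 43108 and 23864 CPM in CCl4 plasma, against 2992, 12720 and 16621 CPM in corn oil plasma, which placed it among the most abundant miRNAs of the CCl4 libraries. All CCl4 values were above all corn oil values, with CCl4 replicate 3 not far over corn oil replicate 3. The log2 fold change was 2.32 (SE 0.69, adjusted p = 0.308 in edgeR). miR-194-5p had 265, 65.0 and 55.7 CPM in CCl4 plasma and 19.3, 29.4 and 29.5 CPM in corn oil plasma. The groups were again separate, with a log2 fold change of 2.41 (SE 0.78), though corn oil replicates 2 and 3 rest on a few reads each. The passenger arms miR-192-3p (21, 1 and 8 reads) and miR-194-3p (17, 3 and 2 reads) were read in CCl4 plasma and had no read in corn oil plasma. Pooled over the libraries of each group, against a floor of 3 corn oil reads, that sets lower bounds of 1.93-fold and 1.42-fold. Most of the reads came from CCl4 replicate 1, and the bounds need not hold for each rat.

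miR-193a-3p was separate between the groups. Its levels were 275, 138 and 120 CPM in CCl4 plasma, against 25.7, 29.4 and 29.5 CPM in corn oil plasma, where replicates 2 and 3 rest on a few reads each. The log2 fold change was 2.68 (SE 0.59), with an adjusted p = 0.0721 in edgeR and 0.0169 in DESeq2. Its seed partner miR-193b-3p differed by a log2 fold change of 0.60 (SE 0.56), and the groups overlapped. miR-365-3p, whose gene neighbours that of miR-193a in the GRCr8 annotation, was too low for the test, with 56, 14 and 21 reads in CCl4 plasma and 2, 0 and 1 reads in corn oil plasma.

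miR-101b-3p, whose family is known to repress the histone methyltransferase EZH2, had 6434, 3805 and 2878 CPM in CCl4 plasma, against 2073, 764 and 1376 CPM in corn oil plasma. The groups were separate, with a log2 fold change of 1.63 (SE 0.55). miR-101a-3p carries the same seed and had 3739, 2973 and 3088 CPM in CCl4 plasma and 2474, 2659 and 2103 CPM in corn oil plasma. Its log2 fold change was 0.44 (SE 0.43, adjusted p = 0.835 in edgeR). The groups were separate only after TMM scaling. In CPM per total reads the lowest CCl4 library held 2530 and the highest corn oil library 2838. With 2 mismatches allowed in the alignment, how far reads of miR-101a-3p and miR-101b-3p were told apart was not tested.

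miR-22 was the most abundant miRNA of the vehicle livers among the list members. miR-22-3p had 177926, 184539 and 88120 CPM in CCl4 plasma, against 51711, 121663 and 68774 CPM in corn oil plasma. The groups overlapped through corn oil replicate 2, and the log2 fold change was 0.90 (SE 0.45, adjusted p = 0.529 in edgeR). The rare arm miR-22-5p had 71.6, 46.8 and 36.5 CPM in CCl4 plasma and 23.6, 0 and 9.83 CPM in corn oil plasma. These groups did not overlap, with a log2 fold change of 1.69 (SE 0.66), though corn oil replicates 2 and 3 lie under 3 reads.

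miR-182, of the miR-183 cluster expressed in epithelia and sensory organs, had 2678, 925 and 643 CPM in CCl4 plasma, against 191, 132 and 560 CPM in corn oil plasma. CCl4 replicate 3 was only just above corn oil replicate 3, and the log2 fold change was 2.27 (SE 0.74, adjusted p = 0.308 in edgeR). Its cluster partner miR-183-5p, at 152, 39.0 and 33.7 CPM in CCl4 plasma and 4.29, 14.7 and 78.6 CPM in corn oil plasma, overlapped between the groups.

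By list, 4 of the 6 liver-enriched members (miR-122-5p, miR-122-3p, miR-802-5p and miR-31a-5p) were tested. All 4 were higher by sign, 3 met the looser criterion, 1 passed the adjusted threshold, and the median log2 fold change was 4.03, beside 0.04 over all 231 tested rows, of which 124 were higher by sign and 4.33% met the looser criterion upwards. miR-31a-5p, the member that missed the looser criterion, had 182, 33.8 and 273 CPM in CCl4 plasma, against 32.2, 14.7 and 108 CPM in corn oil plasma. The groups overlapped, with a log2 fold change of 1.70 (SE 0.85). Of the 11 other miRNAs abundant in liver, 9 were tested. All 9 were higher by sign, 5 met the looser criterion, none passed the adjusted threshold in edgeR (2 did in DESeq2), and the median was 1.63. Low-level members passed the filter only through the CCl4 libraries, so these medians describe the tested members and support nothing further. CCl4 replicate 1 was the highest CCl4 library for 14 of these 17 miRNAs.

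Expressed as a share of all reads, the liver-enriched list took 0.268%, 0.103% and 0.0783% of the CCl4 libraries, against 0.00713%, 0.00283% and 0.0208% of the corn oil libraries. The other liver miRNAs took 30.0%, 23.3% and 18.7% of the CCl4 libraries, against 11.4%, 14.7% and 13.2% of the corn oil libraries. No CCl4 library overlapped a corn oil library in either share. In the 6 plasma libraries of methylcellulose and saline rats, which the comparison did not use, the shares were 0% to 0.0272% and 12.2% to 14.2%, below every CCl4 library. Without miR-122-5p the liver-enriched share was 0.0979%, 0.0252% and 0.0523% in CCl4 plasma, against 0.00141% to 0.0187% in corn oil plasma. It was 0% to 0.0229% in plasma of methylcellulose and saline rats, so CCl4 replicate 2 then lay only just above the highest vehicle library. The methylcellulose plasma was drawn at 24 h like the CCl4 plasma, but the saline plasma at 72 h. Methylcellulose replicate 3 held only 21627 reads, of which 1 read is worth 46.2 CPM, and its 0 reads on the liver-enriched list allow a share of up to 0.0139%. By unscaled CPM (per total reads), all 9 miRNAs that met the looser criterion upwards were higher in each CCl4 library than in each of the other 5 libraries. Against methylcellulose replicate 3 no order can be given for 5 of the 9, whose lowest CCl4 library lay under 3 reads of that library. The 9 were picked as high in these same CCl4 libraries, and no share over all tested rows is given. The order is therefore a description only.

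Each miRNA's plasma change was set beside its level in liver of corn oil rats. The liver label held, since miR-122-5p was at 20130 CPM in corn oil liver and at 2.43 CPM in kidney of saline rats. Across the 231 tested rows, Spearman's rho between the plasma log2 fold change and the liver level was 0.23. It was 0.25 against the ratio of liver to kidney level and 0.36 against the ratio of liver level to the plasma level of methylcellulose and saline rats. These are descriptions, since the miRNAs share the same libraries, and capture of a small RNA by adaptor ligation depends on its sequence. By quartile of liver level, the median log2 fold change was -0.16, 0.03, 0.09 and 0.29 from the lowest quartile to the highest, and 8 of the 10 rows higher under the looser criterion fell in the highest quartile.

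The rows were also ordered by the ratio of liver to plasma level. All 10 rows higher under the looser criterion lay in the highest quartile, 58 rows whose median log2 fold change was 0.46, whereas that quartile also held 2 of the 10 lower rows. With the vehicle plasma level taken without methylcellulose replicate 3, or from the 3 methylcellulose libraries alone, both chosen after seeing the data, all 10 higher rows again lay in the highest quartile. A miRNA scarce in vehicle plasma can pass the filter only if CCl4 plasma carries it, so the count was repeated on the 186 rows that met the read minimum (23.3 CPM) in all 3 corn oil libraries, a choice made after seeing the data. In corn oil replicates 2 and 3 that minimum lies under 3 reads (44.0 and 29.4 CPM). Poorly resolved values therefore remain, miR-193a-3p in replicate 2 among them. Among the 186 rows, 4 were higher at an unadjusted p under 0.05. All 4 (miR-193a-3p, miR-192-5p, miR-182 and miR-101b-3p) lay in the highest quartile of 47 rows, with rho at 0.30. Without corn oil replicate 2, 13 of 13 such rows lay in the highest quartile of all rows tested, and without corn oil replicate 1, 14 of 24 did. Without CCl4 replicate 1, 4 of 4 did. These counts are over all rows tested, so the limit set by the filter applies to them too, and they are a description only.

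**Figure D2:**
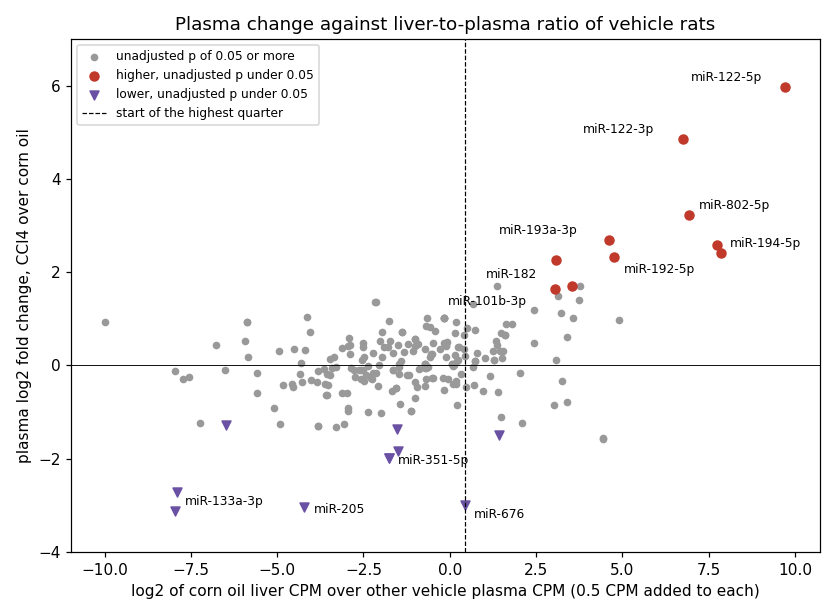
Plasma log2 fold change (CCl4 over corn oil, y axis) of the 231 tested rows against the log2 ratio of corn oil liver level to the plasma level of methylcellulose and saline rats (x axis). Red points (higher) and purple triangles (lower) have an unadjusted p under 0.05. All 10 red points lie right of the dashed line that starts the highest quartile. A row scarce in vehicle plasma can pass the filter only through CCl4 plasma, so this placement is a description only.

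miR-148a-3p and miR-21-5p were plentiful in liver, and their plasma groups overlapped. miR-148a-3p, at 67984 CPM in corn oil liver, had 56424, 38760 and 47444 CPM in CCl4 plasma and 39941, 14527 and 36377 CPM in corn oil plasma. The log2 fold change was 0.65 (SE 0.46). miR-21-5p, at 76673 CPM in corn oil liver and known to rise in many injured tissues, had 33949, 26926 and 24882 CPM in CCl4 plasma, against 25697, 7726 and 13259 CPM in corn oil plasma. Both miRNAs were already plentiful in plasma of methylcellulose and saline rats, at 51421 and 21936 CPM.

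In liver itself, the 10 rows higher in plasma showed log2 fold changes of -0.39 to 0.15 between CCl4 and corn oil rats, and the smallest adjusted p among them was 0.136. miR-122-5p differed by -0.06 (SE 0.13) in liver. The liver comparison called 3 rows higher (1.18% of 254) and 4 lower (1.57%) by edgeR. Of these 7 rows, 6 were tested in plasma, and none of the 6 met the looser criterion there. The 3 that rose in liver are known from white blood cells. miR-146b-5p had a log2 fold change of 2.66 in liver and -0.20 in plasma, miR-155-5p 2.06 in liver and 1.31 in plasma, and miR-223-3p 1.83 in liver and 0.51 in plasma. The column names carry an L tag, whose meaning they do not state, and in liver it was partly confounded with treatment. CCl4 replicates 2 and 3 carried tag 6 (2071739 and 2213358 reads), and CCl4 replicate 1 and all 3 corn oil livers tag 5 (410242 to 686738 reads). Among the tag 5 livers alone, a choice made after seeing the data, edgeR called the same 3 rows higher and 0 lower, with log2 fold changes of 2.79, 1.72 and 1.65 for miR-146b-5p, miR-155-5p and miR-223-3p. The single CCl4 liver is there assumed to vary like the corn oil livers. In a tissue, more cells of a type and more RNA per cell cannot be told apart. The livers may be those of the rats that gave the plasma, so the comparisons are not independent.

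The arms of miR-122 were read in different proportions in plasma and liver. miR-122-3p made up 22.3% (95% exact binomial interval 20.7% to 23.9%), 14.6% (11.3% to 18.4%) and 34.2% (30.1% to 38.5%) of the miR-122 reads in the 3 CCl4 plasma libraries, against 5.95%, 4.66% and 4.15% in CCl4 liver. The plasma and liver shares did not overlap. In plasma after acetaminophen (APAP) the share was 25.1% to 40.4%, and in corn oil liver 5.10% to 5.52%. For miR-802 the shares overlapped, as miR-802-3p made up 28.8%, 63.0% (42.4% to 80.6%, on 10 and 17 reads of the arms) and 27.4% of its reads in CCl4 plasma and 31.1% to 38.2% in CCl4 liver. For miR-192 the order was the other way, since miR-192-3p made up 0.0060% to 0.0231% of its reads in CCl4 plasma, on 1 to 21 reads, and 0.0301% to 0.0373% in CCl4 liver. The shares did not overlap, but the counting intervals of the plasma libraries did with those of liver. miR-22-5p made up 0.0253% to 0.0414% of miR-22 reads in CCl4 plasma and 0.0349% to 0.0762% in CCl4 liver, with overlap. The intervals cover counting error only, and plasma and tissue RNA were isolated by different methods, whose part in the shares was not tested.

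**Figure D3:**
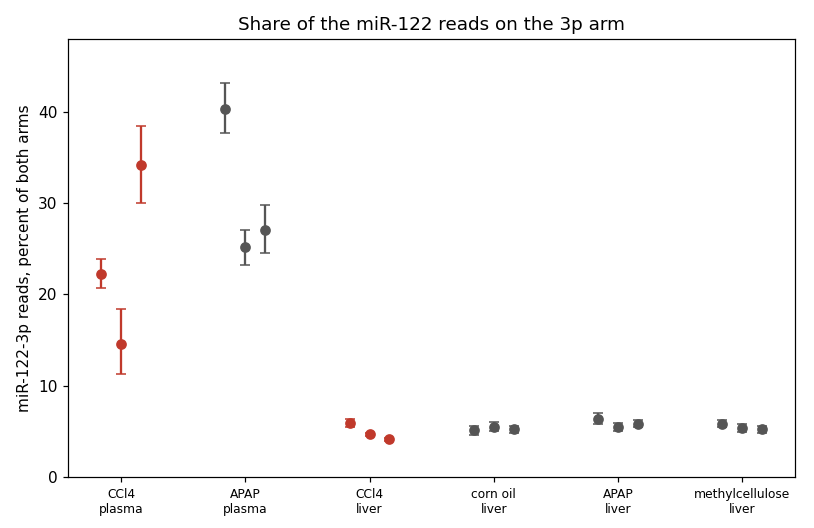
Percent of miR-122 reads on the 3p arm (y axis) in each library of CCl4 and APAP plasma and of CCl4, corn oil, APAP and methylcellulose liver, with 95% exact binomial intervals. Plasma libraries lie at 14.6% or more and liver libraries at 6.40% or less.

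The lower side of the comparison rested largely on 2 corn oil rats. Corn oil replicate 2 or 3 was the highest of the 6 libraries for all 9 miRNAs that were lower under the looser criterion, and for 7 of them corn oil replicate 1 was not above every CCl4 library. None passed the adjusted threshold in edgeR.

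miR-133a-3p, made in skeletal and cardiac muscle, had 702, 842 and 663 CPM in CCl4 plasma, against 161, 13366 and 5720 CPM in corn oil plasma. The CCl4 values were tightly grouped and lay between corn oil replicate 1 and the other two corn oil libraries. The log2 fold change was -3.12 (SE 1.08, adjusted p = 0.308 in edgeR, 0.0194 in DESeq2). miR-133b-3p had 45.0, 54.6 and 40.6 CPM in CCl4 plasma and 10.7, 617 and 334 CPM in corn oil plasma, in the same arrangement, with a log2 fold change of -2.72 (SE 1.01). Only these 2 of the 8 muscle list members were tested. The list took 0.0689% to 0.0815% of the reads in CCl4 plasma, 0.0224%, 1.37% and 0.647% in corn oil plasma, and 0.110% to 0.509% in plasma of methylcellulose and saline rats. How far muscle RNA in single corn oil rats moved these values was not tested.

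miR-205, a miRNA of squamous epithelia such as skin, turned on a single library. It had 56.9, 28.6 and 24.8 CPM in CCl4 plasma, against 27.9, 29.4 and 875 CPM in corn oil plasma. Corn oil replicate 3 stood alone, and the log2 fold change of -3.04 (SE 1.15) became 0.40 without it.

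miR-676 and miR-351-5p, both on the X chromosome in the GRCr8 annotation, were also highest in corn oil replicates 2 and 3. miR-676 was at 14.7, 18.2 and 21.3 CPM in CCl4 plasma, against 8.57, 264 and 206 CPM in corn oil plasma, with a log2 fold change of -3.00 (SE 0.95). miR-351-5p was at 541, 860 and 321 CPM in CCl4 plasma, against 551, 3246 and 3086 CPM in corn oil plasma, with a log2 fold change of -1.99 (SE 0.70). Corn oil replicate 1 lay below all CCl4 libraries for miR-676 and between them for miR-351-5p. miR-125a-5p and miR-125b-5p, which share the miR-351-5p seed, differed by -1.50 (SE 0.65) and -1.58 (SE 0.74), and all 3 overlapped between the groups.

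miR-127-3p, from the imprinted Dlk1-Dio3 locus, had 79.8, 67.6 and 47.5 CPM in CCl4 plasma, against 32.2, 455 and 246 CPM in corn oil plasma. Corn oil replicate 1 was again the lowest of all 6 libraries. The locus was otherwise barely read, since 2 of its 31 list members were tested. miR-434-3p, the other one, had a log2 fold change of -1.30 (SE 0.72).

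miR-99b-3p and miR-6328 were the 2 that did not overlap. miR-99b-3p had 13.8, 13.0 and 24.1 CPM in CCl4 plasma, against 42.9, 44.1 and 49.1 CPM in corn oil plasma, a log2 fold change of -1.36 (SE 0.50). The values in corn oil replicates 2 and 3 rest on a few reads each. miR-6328 had 78.0, 146 and 90.8 CPM in CCl4 plasma and 154, 397 and 226 CPM in corn oil plasma, a log2 fold change of -1.28 (SE 0.54). Over all tested rows, the 3 CCl4 libraries lay above the 3 corn oil libraries in 23 rows (9.96%) and below them in 5 rows (2.16%), 28 rows in all (12.1%).

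**Figure D4:**
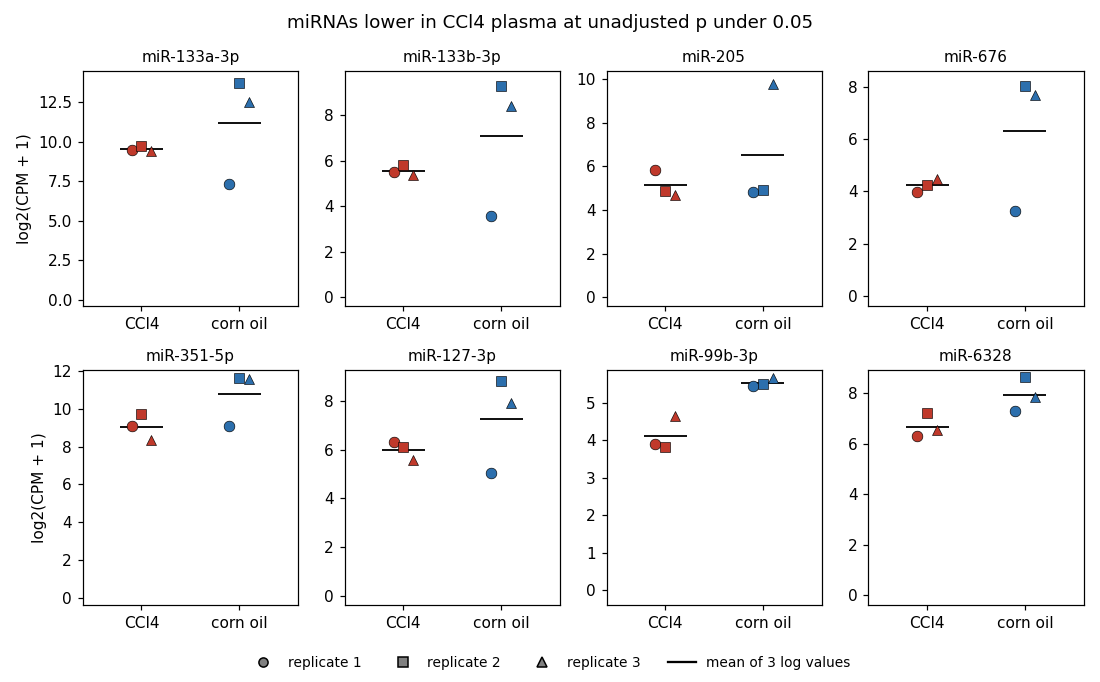
Levels of 8 of the 9 miRNAs that were lower in CCl4 plasma at an unadjusted p under 0.05, as log2(CPM + 1) on the y axis, with CCl4 rats (red) left of corn oil rats (blue), 1 symbol per replicate and a bar at the mean of the 3 log values. Only miR-99b-3p and miR-6328 have all CCl4 rats below all corn oil rats, and miR-205 is set by corn oil replicate 3.

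Among those 9, miR-676 and miR-133a-3p were also, by unscaled CPM, lower in each CCl4 library than in each of the 6 methylcellulose and saline libraries. For miR-676 these were 13.0 to 24.0 CPM in CCl4 plasma and 35.2 to 132 CPM in the other vehicles. For miR-133a-3p they were 622 to 746 CPM in CCl4 plasma and 995 to 4879 CPM in the other vehicles. miR-133b-3p, at up to 46.4 CPM in CCl4 plasma, was below the other 5 libraries (60.4 CPM or more) but not below methylcellulose replicate 3, where it had 1 read. In that library miR-676 had only 2 reads. The remaining 6 overlapped with those libraries. The 9 were picked as low in these same CCl4 libraries, so the order is a description only.

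Blood cell miRNAs showed no call. All 6 red cell list members present, among them miR-16-5p and miR-92a-3p, were tested, with 3 higher and 3 lower by sign, a median log2 fold change of 0.03 and none at the looser criterion. The 8 white blood cell members had a median of -0.16, with 3 higher and 5 lower by sign. Its member with the largest value, miR-155-5p, which is induced in activated leukocytes, had 56.0, 124.7 and 28.2 CPM in CCl4 plasma and 36.4, 14.7 and 19.7 CPM in corn oil plasma, and the groups overlapped. All 7 plasma-abundant members, among them miR-423-5p and miR-484, were lower by sign (median -0.92), and none met the looser criterion. Over all 231 tested rows, 107 were lower by sign. Levels are relative, and the other liver miRNAs took 18.7% to 30.0% of CCl4 plasma reads, against 11.4% to 14.7% in corn oil plasma. The part of that share in these values was not tested.

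Of the cell growth and repair families, the 6 members of the miR-17-92 cluster, known as an oncogenic and proliferative cluster, had a median log2 fold change of 0.72. miR-20a-5p, one of them, had 886, 832 and 628 CPM in CCl4 plasma, against 497, 426 and 285 CPM in corn oil plasma, without overlap (log2 fold change 0.95, SE 0.46, adjusted p = 0.529 in edgeR). The 2 tested miR-29 members, known repressors of collagen genes, were higher by sign, miR-29a-3p by a log2 fold change of 0.35 (SE 0.44) and miR-29c-3p by 0.65 (SE 0.47), and in unscaled CPM the groups overlapped for both. The let-7 family had a median of -0.18 over 9 members, and the 2 tested miR-34 members, known p53 targets, were split in sign. No row of these lists met the looser criterion.

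Plasma taken 24 h after the second hepatotoxicant, APAP at 1250 mg/kg, against methylcellulose, was fitted in the same way, with its own vehicle libraries, among them the shallow methylcellulose replicate 3. It called 49 rows higher (21.6% of 227) and 12 lower (5.29%). All 10 rows that were higher after CCl4 under the looser criterion were called higher after APAP, and of the 8 lower rows that were tested there, 1 (miR-676) was called lower. Of the 43 rows called higher after APAP and tested after CCl4, 36 were higher by sign after CCl4, with a median log2 fold change of 0.69 after CCl4 and 2.98 after APAP. The 12 rows called lower after APAP were all lower by sign after CCl4 (median -0.32). Over the 215 rows tested in both, Spearman's rho between the log2 fold changes was 0.61.

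Individual values were smaller after CCl4. miR-192-5p had a log2 fold change of 2.32 after CCl4 and 6.73 after APAP, miR-22-3p 0.90 and 3.55, and miR-429, of the epithelial miR-200 family, 1.18 and 5.62, in the same order of toxicants. For miR-122-5p the values were 5.96 after CCl4 and 7.85 after APAP. In unscaled CPM its levels overlapped, at 260 to 1696 in CCl4 plasma and 1554 to 2009 in APAP plasma. The vehicles held few of its reads, at 14.1 to 20.8 CPM in corn oil plasma and 0, 43.0 and 0 CPM in methylcellulose plasma. miR-429 was likewise scarce in methylcellulose plasma, at 9.60, 17.9 and 0 CPM, so these fold changes are poorly resolved. The difference between the responses, tested directly over 12 libraries, was called for 0 of 255 rows (0%) in edgeR. At an unadjusted p under 0.05 there were 35 rows, 32 with the lower value after CCl4 and 3 with the higher, and DESeq2 called 8 rows, all lower after CCl4. miR-192-5p came nearest, at a difference of -4.53 (SE 0.98, adjusted p = 0.0723 in edgeR). miR-125b-5p was of opposite sign, at -1.58 after CCl4 and 2.98 after APAP. The column names carry a different L tag for the CCl4 and corn oil libraries than for the APAP and methylcellulose libraries, so toxicant, vehicle and tag cannot be told apart here.

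**Figure D5:**
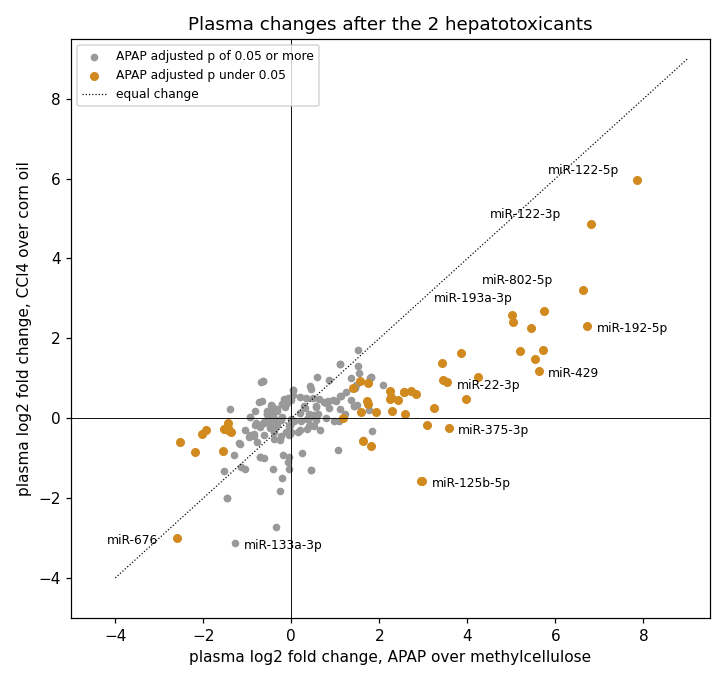
Plasma log2 fold change after CCl4 (over corn oil, y axis) against that after APAP (over methylcellulose, x axis) for the 215 rows tested in both, 1 point per row, orange where the APAP adjusted p is under 0.05. Most orange points on the right lie below the dotted line of equal change, miR-192-5p at 2.32 after CCl4 and 6.73 after APAP among them.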

How the data were processed

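The authors sequenced small RNA libraries (TruSeq, GAIIx, 36 bases), clipped adaptors, aligned with OSA v4 to Rnor_5.0 and miRBase v21 with 2 mismatches and without reads at more than 10 genomic locations, and deposited raw counts per mature miRNA. Rows, columns and labels were matched by sample description, and 0 columns were left without a sample. Counts were tested with edgeR 4.0.16 in R 4.3.3 (filterByExpr at its limits of 10 reads and 15 in total, TMM scaling, glmQLFit, 2-sided glmQLFTest, Benjamini-Hochberg at 0.05). The standard error is the log2 fold change over the square root of F. DESeq2 1.42.0, the authors' tool, was an alternative, beside other scalings, filters, equal depth, copies counted once, a replicate block and each library left out. Liver-to-plasma and liver-to-kidney ratios used 0.5 CPM as pseudocount. Tables and figures used Python 3.11.15.

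The miRNAs named were drawn from those past the adjusted threshold, the 12 smallest p values in each direction, all members of both liver lists, the 2 smallest p values of each other list and those the study names as elevated. Others, such as miR-146b-5p, miR-223-3p and miR-19b-3p, were named after their values were seen. The comparison, the members and the 19 lists were chosen with earlier results of these data known. No pair of libraries of a group agreed within sampling noise. The read depth limits values near 3 counts per library, and binomial intervals (Clopper-Pearson) cover counting error only.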

Additional observations from a re-analysis of the deposited data

How the results depend on the processing

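The count of rows called by edgeR depended on the settings, while miR-122-5p kept its direction in all 15 alternatives (log2 fold change 5.05 to 6.45, adjusted p 8.38e-11 to 0.0915) and was called in 14. In place of 1 row called higher and 0 lower, DESeq2 called 5 and 6, no filter on low counts 9 and 4, and all 18 plasma libraries in one fit 5 and 4, while leaving out each library gave 0 to 4 higher and 0 to 10 lower. Without corn oil replicate 1 edgeR called 14 rows, among them miR-133a-3p, miR-133b-3p, miR-205, miR-676, miR-351-5p and miR-127-3p as lower. In place of 10 higher and 10 lower rows at the looser criterion, no filter gave 26 higher, equal depth 6 higher and 5 lower, DESeq2, total count scaling and all plasma libraries in one fit 16 lower each, and leaving out each library 4 to 24 higher and 3 to 29 lower. Rows called lower after CCl4 than after APAP numbered 8 in DESeq2, 9 with no filter, 1 at equal depth and 0 to 8 without each library. In liver, DESeq2 called 1 row lower, the tag 5 livers alone 0 lower, and leaving out each library gave 3 to 5 higher and 1 to 5 lower.

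Deviations of same-numbered CCl4 and corn oil plasma libraries correlated at -0.11, 0.56 and 0.03, and those of different-numbered libraries at -0.41 to 0.47. The 2 ranges overlap, so this check cannot tell whether the numbers pair the rats. With the replicate block edgeR called 5 rows higher in plasma, 17 rows were higher at the looser criterion, and 0 rows were called lower in liver.

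The Spearman correlation of plasma change with the liver level was 0.30 on rows past the read minimum in all corn oil libraries and 0.19 to 0.31 without each library. With the liver-to-kidney ratio it was 0.18 on those rows and 0.19 to 0.27 without each library, and with the liver-to-plasma ratio 0.25 to 0.43 without each library. Leaving out each library gave log2 fold changes of -3.61 to 0.40 for miR-205, -0.64 to 0.016 for miR-128-3p, -1.18 to 0.26 for miR-203a-3p and -0.73 to 0.30 for miR-375-3p, each turning positive without corn oil replicate 3. miR-375-3p also turned to 0.28 without CCl4 replicate 3 and to 0.083 with no filter. The cause of these changes was not tested. With 3 rats a group and 1 corn oil library of 70736 reads, miRNAs under 3 reads in corn oil plasma cannot be ranked by fold change.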

Other observations

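Reads were found only in CCl4 plasma for 121 rows and only in corn oil plasma for 15 rows, where the CCl4 libraries together held 5.18 times the reads of the corn oil libraries. Besides miR-802-3p, miR-200b-3p of the epithelial miR-200 family had the most such reads, with 28, 3 and 3 in CCl4 plasma. Pooled over the libraries, that is at least 2.19-fold above a floor of 3 reads over the corn oil group, most of it from replicate 1. The 26 seeds shared by 2 or more tested miRNAs had median log2 fold changes of -2.92 (the miR-133 seed) to 1.64 (the miR-193 seed, where miR-193a-3p was at 2.68 and miR-193b-3p at 0.60). The next highest was the miR-19 seed, with miR-19a-3p and miR-19b-3p at 1.04 and 1.35.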
